A study of Mus musculus with 33 samples.

Results

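Insulin-like growth factor (IGF) signalling was followed at the mRNA level in mouse embryonic stem cell (mESC) cultures that were directed toward tendon or fibrocartilage. The 8 genes described are the ligand gene Igf1, the receptor genes Igf1r and Igf2r and the binding protein genes Igfbp2, Igfbp3, Igfbp4, Igfbp5 and Igfbp7. They were taken by gene symbol from a table of 17120 genes, with earlier results of these data known, and all 8 were in the table. None was lost to the filter on low counts, which removed 0 genes. The mESC lines were derived from ScxGFP mice, which carry a fluorescent reporter of the tendon transcription factor Scx. The study used 3 reporter-positive lines, and the line behind each library was not given in the sources used here.

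All cultures began as embryoid bodies in serum-free medium with LDN-193189, an inhibitor of BMP receptors, and were then given the Wnt agonist CHIR together with LDN-193189 until culture day 6 (D6). The 3 libraries taken at that point are labelled paraxial mesoderm (PM) and came from embryoid bodies. The remaining 30 libraries came from monolayers that all received TGFβ1, the hedgehog pathway agonist SAG and FGF2. They were completed with 1 of 2 retinoid ligands: CD1530, which activates RARγ and was used for tendon differentiation, or AGN 193109 (AGN), an inverse agonist of retinoic acid receptors used for fibrocartilage differentiation. Libraries were made in triplicate from each condition on the part-days D6.25 and D6.75, then at D7.5, D8.5 and finally D10, which gave 11 groups in all. The optimised protocol of the study also allows AGN 193109 during the PM stage, and whether the sequenced cultures had received it was not given. PM differs from every later group in culture form and in medium as well as in time, and these cannot be told apart in a comparison with PM.

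IGF-1 and IGF-2 are secreted growth factors that act mainly through IGF1R, a receptor tyrosine kinase that signals through IRS adaptors, PI3 kinase and AKT. IGF2R is not a signalling kinase receptor: it carries mannose 6-phosphate tagged enzymes to lysosomes and removes IGF-2 from the cell surface. The IGF binding proteins are secreted proteins that hold IGFs in the extracellular space, carry them, or keep them from the receptor, and proteases release the ligand by cutting them. IGFBP2 to IGFBP5 bind IGFs with high affinity, whereas IGFBP7 is a relative with low affinity. In tendon and cartilage, IGF-1 is known for promoting cell growth and matrix synthesis.

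In the mouse genome (GRCm38, GENCODE M21) the 8 genes lie on 6 chromosomes. Igf1 (ENSMUSG00000020053) is at chr10:87858265-87937042 on the plus strand, Igf1r (ENSMUSG00000005533) at chr7:67952827-68233668 on the plus strand, and Igf2r (ENSMUSG00000023830) at chr17:12682406-12769664 on the minus strand. Igfbp2 (ENSMUSG00000039323, chr1:72824503-72852474, plus strand) and Igfbp5 (ENSMUSG00000026185, chr1:72857932-72874884, minus strand) are neighbours with their 3′ ends 5.458 kb apart. Igfbp3 (ENSMUSG00000020427, chr11:7206086-7213923, minus strand) and Igfbp4 (ENSMUSG00000017493, chr11:99041244-99054392, plus strand) share a chromosome but are far apart, and Igfbp7 (ENSMUSG00000036256) is at chr5:77349240-77408041 on the minus strand. The strand used in counting was not given. Igfbp7 shares 85 exonic bases (7.03% of its exon length) with Polr2b on the opposite strand, so a small part of its counts could belong to Polr2b. Igf2r overlaps the antisense gene Airn without shared exon bases.

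Promoter sequence is shown for Igf1, Igf2r, Igfbp3 and Igfbp5, the 4 genes whose mRNA differed between the conditions at D10. Each run holds the 250 bases before a RefSeq transcription start (GRCm38.p6), written 5′ to 3′ on the strand of the gene, and capitals mark AGGTCA, the half-site letters that retinoic acid receptors and many other nuclear receptors bind. The Igf1 window lies inside the annotated gene as placed above, so it precedes a start downstream of the first base of the gene.
Igf1 (chr10:87860861-87861110, plus strand): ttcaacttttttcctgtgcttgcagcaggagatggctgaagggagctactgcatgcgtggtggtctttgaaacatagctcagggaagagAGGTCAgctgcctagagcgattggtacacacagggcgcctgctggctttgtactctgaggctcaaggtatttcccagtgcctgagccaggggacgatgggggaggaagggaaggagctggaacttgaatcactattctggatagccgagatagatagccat
Igf2r (chr17:12769707-12769956, minus strand): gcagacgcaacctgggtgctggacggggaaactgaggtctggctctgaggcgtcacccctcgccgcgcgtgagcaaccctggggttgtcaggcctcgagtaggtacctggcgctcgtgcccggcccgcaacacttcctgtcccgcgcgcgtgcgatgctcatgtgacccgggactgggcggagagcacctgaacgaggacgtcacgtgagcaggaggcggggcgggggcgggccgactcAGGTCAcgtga
Igfbp3 (chr11:7213924-7214173, minus strand): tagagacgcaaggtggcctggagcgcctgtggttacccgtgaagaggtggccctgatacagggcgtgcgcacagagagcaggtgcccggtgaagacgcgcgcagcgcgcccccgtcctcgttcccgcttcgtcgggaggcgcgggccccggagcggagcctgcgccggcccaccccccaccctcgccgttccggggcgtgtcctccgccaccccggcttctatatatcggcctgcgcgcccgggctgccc
Igfbp5 (chr1:72874866-72875115, minus strand): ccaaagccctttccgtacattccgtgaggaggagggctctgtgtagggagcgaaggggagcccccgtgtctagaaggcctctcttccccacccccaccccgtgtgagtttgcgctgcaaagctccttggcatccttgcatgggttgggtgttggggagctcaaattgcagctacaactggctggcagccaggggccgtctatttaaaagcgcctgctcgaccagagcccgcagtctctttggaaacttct

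On either strand, AGGTCA was found at bases -161 to -156 of the Igf1 window, at -11 to -6 of the Igf2r window and, reading the minus strand, at -86 to -81 of the Igf1r window, counted back from the start site that each window precedes. The same letters were present in 14.0% of 32851 RefSeq promoter windows of that length. The direct repeats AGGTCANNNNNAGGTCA and AGGTCANNAGGTCA were each present in 0.00913% of all windows and in none of the 8 genes' windows. The letters GACCACCCA (a GLI site, 0.225% of windows) and GTCTAGAC (a SMAD palindrome, 0.167%) were likewise in none of them, and TATAAA (12.4%) was in the Igfbp4 window, at -28 to -23. These matches describe the letters in the windows and nothing more.

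The 33 libraries held between 17116084 and 38120841 counts, with a median of 19899242, and 32 of them held at most 22775275. The deepest was AGN D8.5 replicate 1. Levels are given as CPM, the usual unit that relates the counts of a gene to the total of its library, with totals scaled by the trimmed mean of M values (TMM), and levels of different genes are compared only per kilobase of annotated exon. The library CD1530 D6.75 replicate 1 stood apart from the other 2 of its group, and each D6.75 difference named for a gene is given with and without it. The PM markers Tbx6 and Msgn1 were low in PM (9.56 ± 0.77 and 3.38 ± 0.61 CPM, SD, n = 3) and lower at D10: Msgn1 was at 0 to 0.125 CPM over both conditions, and Tbx6 at 0.112 to 0.440 CPM in CD1530 and 0.125 to 0.535 CPM in AGN. The sum of all 5 listed PM markers (these with Meox1, Pax3 and Tcf15) rose instead. It went from 35.4 to 39.5 CPM in PM to 90.2 to 95.6 CPM in CD1530 and 74.5 to 78.6 CPM in AGN at D10. The tendon marker Scx was at 858 ± 17 CPM in CD1530 and 1223 ± 28 CPM in AGN at D10, against 6.41 ± 0.85 CPM in PM. Scx is 1 of 5 listed tendon markers, with Mkx, Tnmd, Col1a1 and Col3a1. The sum of the 5 was 14605 to 15280 CPM in CD1530 and 17873 to 18950.5 CPM in AGN at D10, against 1397 to 1785 CPM in PM. The summed level of 5 genes known to respond to retinoic acid receptors (Rarb, Cyp26a1, Cyp26b1, Dhrs3 and Stra8) was 800 to 804 CPM in CD1530 and 36.9 to 37.6 CPM in AGN at D10, and 5 of 5 were higher in CD1530 (beside 46.6% of all genes called).

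All 8 genes were lowest in PM and higher at D10 in both conditions. In CD1530, 8 of 8 rose from PM to D10, where 43.3% of all genes tested rose and 83.2% changed in either direction (edgeR quasi-likelihood test, Benjamini-Hochberg adjusted p under 0.05, which is the rule for every call). In AGN, 8 of 8 rose as well, where 41.6% of all genes rose and 82.0% changed. The median log2 fold change of the 8 genes was 3.23 in CD1530 and 2.86 in AGN, beside medians of 0.04 and 0.00 over all genes. The fold over PM ranged from 2.11 for Igfbp2 to 289 for Igfbp5 in CD1530, and from 2.11 for Igfbp2 to 108 for Igfbp5 in AGN. Because these are bulk cultures, more cells expressing a gene and more mRNA per cell cannot be told apart. Summed macrophage markers (4 genes) fell from 51.8 to 53.9 CPM in PM to between 16.0 and 19.8 CPM at D10, and summed endoderm markers (4 genes) fell from 673 to 696 CPM in PM to 128 to 132 CPM in CD1530 and 279 to 284 CPM in AGN. Of those 4 endoderm markers, 2 fell (Epcam and Cdh1) and 2 rose (Sox17 and Foxa2) in both conditions, so the sum follows its abundant members. What part these shifts play in the rise was not tested.

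**Figure D1:**
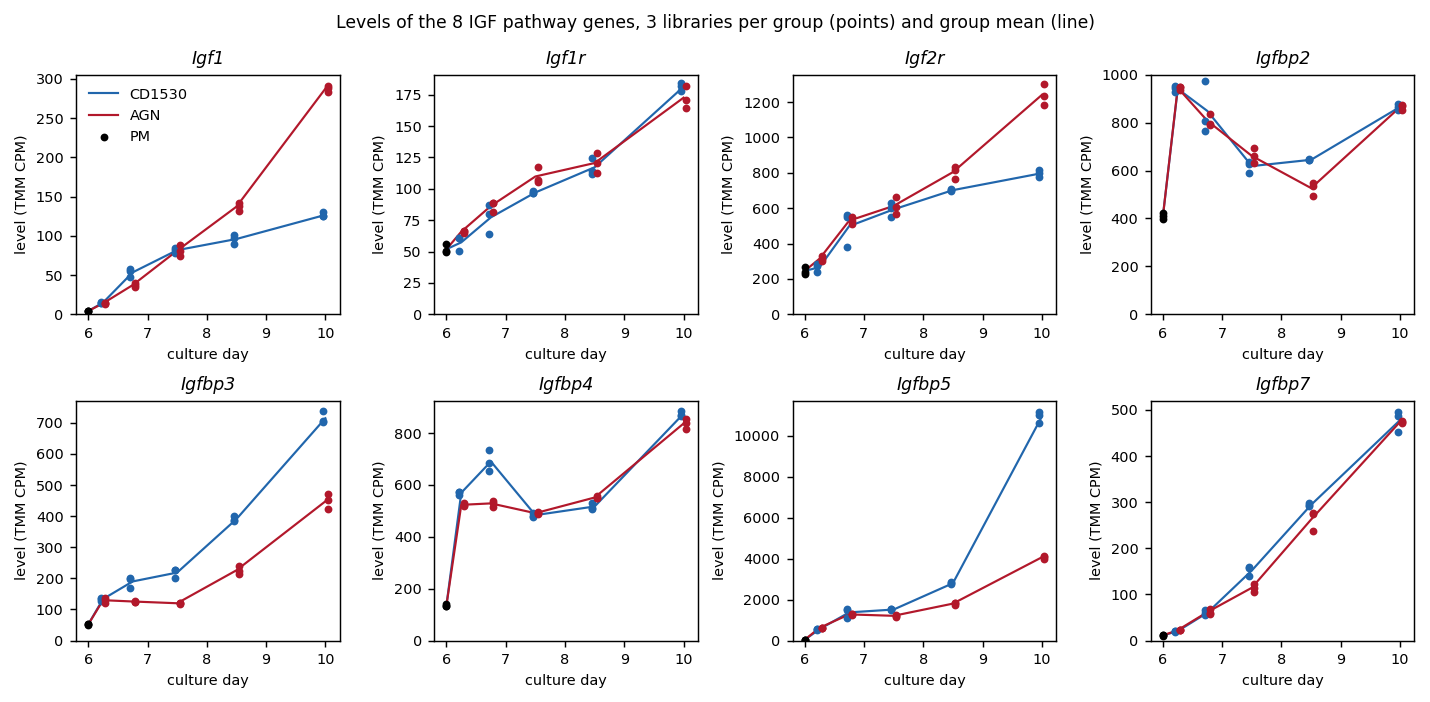
Levels of the 8 genes in TMM-scaled CPM (vertical axis, linear and starting at 0) against culture day (horizontal axis), with 1 point per library, lines through the group means of 3 libraries, PM in black, CD1530 in blue and AGN in red. Igf1 and Igf2r end higher in AGN at D10, Igfbp3 and Igfbp5 end higher in CD1530, and the other 4 genes end close together.

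Between the conditions, the number of the 8 genes that differed grew from 1 at D6.25 to 5 at D8.5. At D6.25 only Igfbp4 was called (1 of 8, beside 1.92% of all genes), and at D6.75 it was joined by Igf1 and Igfbp3 (3 of 8, beside 18.0%), all 3 higher in CD1530 (7.94% of all genes were). At D7.5 Igfbp3, Igfbp5 and Igfbp7 were higher in CD1530 (3 of 8, beside 26.9% called and 15.2% higher). At D8.5 Igfbp2, Igfbp3 and Igfbp5 were higher and Igf1 and Igfbp4 lower in CD1530 (5 of 8, beside 40.0%). At D10 Igfbp3 and Igfbp5 were higher and Igf1 and Igf2r lower in CD1530 (4 of 8, beside 46.6%), so the share of the 8 that differed was near the share among all genes. Only Igf1 and Igfbp5 differed there by at least 1 on the log2 scale (2 of 8, beside 10.8%). The p-values rest on the spread between replicates (3 per group) as pooled over all 11 groups, not on that of the compared groups alone. The study calls them biological replicates, and the labels do not describe them further.

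**Figure D2:**
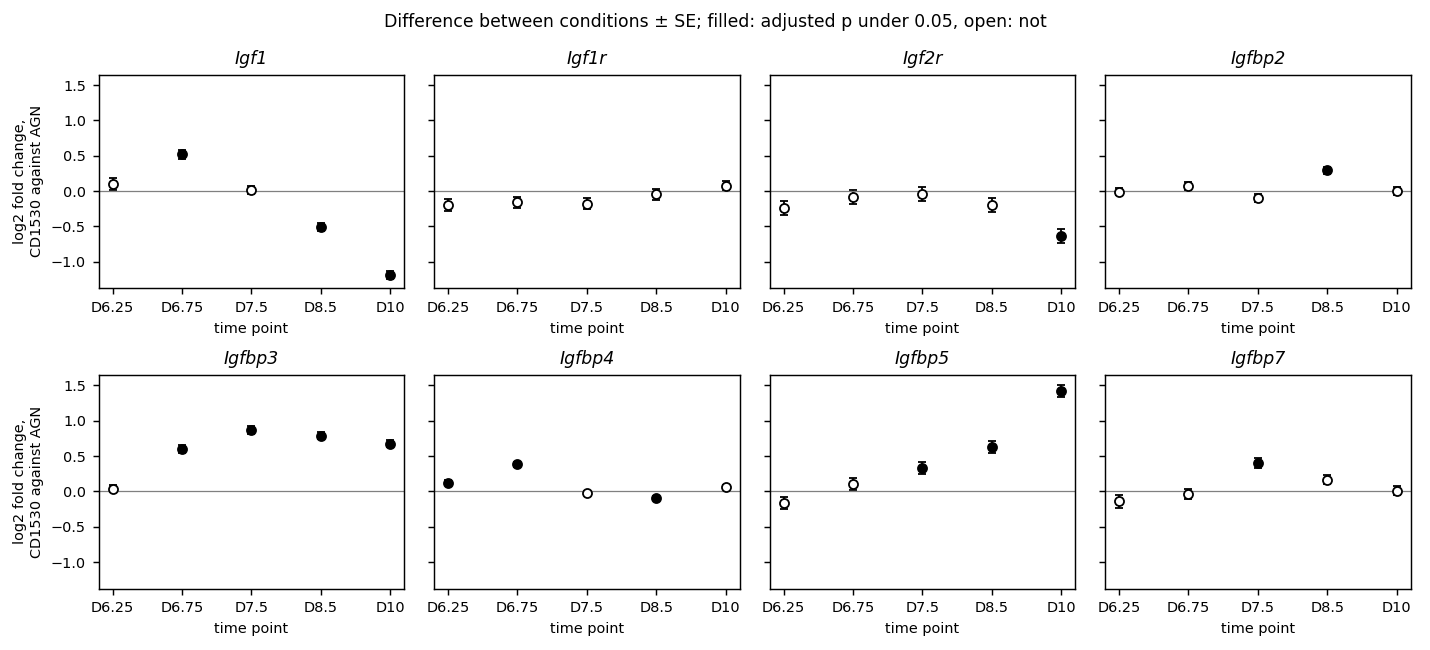
Log2 fold change of CD1530 against AGN (vertical axis) for each of the 8 genes at the 5 time points (horizontal axis), with bars for the standard error; filled points have an adjusted p under 0.05. Igf1 passes from above 0 at D6.75 to -1.18 at D10, while Igfbp5 climbs to 1.43 at D10 and Igfbp3 stays between 0.60 and 0.87 from D6.75 on.

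Igf1, the ligand, rose at every step in both conditions and ended more than 2-fold higher in AGN. Its level was 3.59, 4.34 and 4.31 CPM in the 3 PM libraries. At D6.75 the CD1530 libraries were at 47.5, 57.7 and 55.0 CPM and the AGN libraries at 34.8, 39.3 and 37.5 CPM. All 3 CD1530 libraries were above all 3 AGN libraries at that time, with a log2 fold change of 0.52 ± 0.06 (SE, adjusted p = 2.19e-08), or 0.60 without CD1530 replicate 1 (adjusted p = 8.83e-13). The difference was no longer detected at D7.5, when the conditions had means of 81.7 ± 2.9 and 81.1 ± 7.2 CPM (SD, n = 3). At D8.5 the order was the opposite of D6.75: CD1530 libraries held 97.3, 101.0 and 89.4 CPM and AGN libraries 138, 132 and 142 CPM (log2 fold change -0.51 ± 0.06, adjusted p = 6.26e-10). At D10 the gap had widened to 125, 125 and 130 CPM in CD1530 against 283, 291 and 288 CPM in AGN. The ranges were far apart, and the log2 fold change was -1.18 ± 0.06 (adjusted p = 3.18e-21), a CD1530 to AGN ratio of 0.440.

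Over the whole course Igf1 reached 31.0 times its PM level in CD1530 and 70.5 times in AGN. Between D8.5 and D10 it gained 0.40 ± 0.06 on the log2 scale in CD1530 and 1.07 ± 0.05 in AGN, and these gains differed by -0.67 ± 0.08 (interaction term, adjusted p = 1.13e-08). The cartilage markers differed in the same direction as Igf1 at D10. All 6 (Col2a1, Acan, Matn4, Sox9, Sox5 and Sox6) were lower in CD1530 (46.6% of all genes were called there), with a summed level of 234 to 241 CPM against 2959 to 3092 CPM in AGN, and none was under 0.5 CPM in either. The same list was summed at 395 to 415 CPM in CD1530 and 1115 to 1164 CPM in AGN at D8.5. The sum was also lower in CD1530 at D6.75 (462 to 508 against 629 to 669 CPM), when Igf1 was higher there. At D7.5 it was lower again (517 to 535 against 727 to 768 CPM), when no difference in Igf1 was detected. Within CD1530 the sum fell from D7.5 to D10 while Igf1 rose. The part of these markers in the difference in Igf1, or in any other difference at those times, was not tested.

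Igf1r, the signalling receptor, rose in both conditions and was not called between them at any of the 5 time points in the fit over all 11 groups. When only the groups compared entered the fit, it was called at D6.25 (-0.19, adjusted p = 0.0163), D7.5 (-0.19, adjusted p = 0.000270) and D10 (0.088, adjusted p = 0.0259). It was at 55.9, 49.5 and 50.1 CPM in PM. By D10 it reached 182, 178 and 184 CPM in CD1530 and 165, 171 and 182 CPM in AGN. The 2 conditions overlapped at D10, with a log2 fold change of 0.07 ± 0.08 (adjusted p = 0.467). From D6.25 to D7.5 the estimates lay below 0 (-0.20 ± 0.08, -0.16 ± 0.08 and -0.18 ± 0.08, with adjusted p of 0.309, 0.181 and 0.0911), which does not show that the levels were equal. At D6.75 the call turned on 1 library: without CD1530 D6.75 replicate 3 the estimate was -0.26 (adjusted p = 0.0198), and the group's libraries were spread over 64.3, 80.2 and 87.3 CPM. Without replicate 1, the lowest of them, it was -0.04 (adjusted p = 0.753). From PM to D10 the receptor mRNA gained 1.81 ± 0.08 on the log2 scale in CD1530 and 1.73 ± 0.08 in AGN. The test of any change in the condition difference over the 5 time points gave an adjusted p of 0.154, although it passed the threshold without CD1530 D6.75 replicate 1 (0.0412) or replicate 3 (0.0349).

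Igf2r, the clearance receptor for IGF-2, ended higher in AGN than in CD1530. The PM libraries were at 269.8, 238 and 227 CPM. At D8.5 the CD1530 libraries held 695, 703 and 707 CPM and the AGN libraries 816, 763 and 831 CPM, and although these ranges did not overlap the log2 fold change of -0.20 ± 0.10 did not pass the test (adjusted p = 0.120). It passed when only the groups compared entered the fit (-0.20, adjusted p = 3.73e-08). At D10 the levels were 817, 776 and 800.1 CPM in CD1530 and 1185, 1302 and 1234 CPM in AGN. Each AGN library was above each CD1530 library, and the difference was -0.64 ± 0.10 (adjusted p = 7.77e-06).

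From D8.5 to D10 Igf2r gained 0.63 ± 0.10 in AGN (adjusted p = 6.39e-06), while the value in CD1530 was 0.18 ± 0.10 (adjusted p = 0.114). That CD1530 step was called by DESeq2 (0.21, adjusted p = 0.0332) and when only the groups compared entered the fit (0.21, adjusted p = 1.34e-14). The difference between those gains, -0.44 ± 0.14, passed the test (adjusted p = 0.0199), but without AGN D10 replicate 2 it was -0.40 with an adjusted p of 0.0512. At D6.75 the library CD1530 replicate 1 was at 383 CPM beside 549 and 563 CPM in the other 2, and leaving it out turned the estimate from -0.09 to 0.07, with no call in either case. Per kilobase of exon at D10, Igf2r mRNA stood at 85.7 ± 2.2 CPM in CD1530 and 133 ± 6 CPM in AGN, and Igf1r mRNA at 10.8 ± 0.2 and 10.3 ± 0.5 CPM.

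Igfbp5 showed the widest change from PM of the 8 genes. It codes for a binding protein that attaches to extracellular matrix and is expressed in many connective tissues. In PM it was at 44.8, 35.1 and 33.5 CPM, and by D6.25 it had already reached 529 to 570.4 CPM in CD1530 and 609 to 632 CPM in AGN. That early step was 3.87 ± 0.10 on the log2 scale in CD1530 and 4.03 ± 0.10 in AGN. At D7.5 the CD1530 libraries averaged 1515 ± 17 CPM (SD, n = 3), all 3 above the AGN libraries at 1216, 1252 and 1158 CPM. This was the earliest time at which the fit over all 11 groups called a difference (0.33 ± 0.08, adjusted p = 0.00502). With only the groups compared, Igfbp5 was called lower in CD1530 at D6.25 (-0.16, adjusted p = 4.33e-05). At D8.5 CD1530 was at 2739, 2855 and 2808 CPM and AGN at 1845, 1724 and 1841 CPM (0.63 ± 0.08, adjusted p = 1.34e-06). At D10 the levels were 11014, 10639 and 11155 CPM in CD1530 and 4061, 4131 and 4007 CPM in AGN. The lowest CD1530 library was thus far above the highest AGN library (ratio of the means 2.69).

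The D10 difference in Igfbp5 was 1.43 ± 0.09 on the log2 scale (adjusted p = 6.63e-13). From D8.5 to D10 it gained 1.97 ± 0.09 in CD1530 and 1.17 ± 0.09 in AGN, and the gains differed by 0.79 ± 0.12 (adjusted p = 1.75e-05). At D6.75 no difference was called (0.11 ± 0.08, adjusted p = 0.445), and the outcome there hung on 1 library: CD1530 replicate 1 was at 1089 CPM beside 1502 and 1536 CPM, and without it the difference was 0.25 (adjusted p = 0.00164). The 4 neural markers (Sox1, Pax6, Tubb3 and Elavl3) also differed in that direction at D10, with 4 of 4 higher in CD1530 (beside 46.6% of all genes called). Their summed level was 68.0 to 72.2 CPM against 16.1 to 17.9 CPM in AGN, where Pax6 was under 0.5 CPM. At D8.5 that sum had been 88.6 to 96.7 CPM in CD1530 and 38.3 to 43.0 CPM in AGN. It thus fell in both conditions by D10, while Igfbp5 rose. The part of these markers in the Igfbp5 difference was not tested.

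Igfbp3, the main IGF carrier in blood and also a local product of mesenchymal cells, was higher in CD1530 from D6.75 to D10. Both conditions had risen to the same range at D6.25, 128 to 138 CPM in CD1530 and 122 to 136 CPM in AGN, from 50.5 to 52.5 CPM in PM. At D6.75 the CD1530 libraries reached 202, 198 and 169.7 CPM while AGN stayed at 125, 125 and 126 CPM. At D7.5 they were at 227, 227 and 202 CPM in CD1530 and at 119.5, 121 and 119 CPM in AGN. Igfbp3 thus climbed over this interval in CD1530, whereas in AGN the steps of -0.05 ± 0.05 and -0.07 ± 0.05 between D6.25 and D7.5 did not pass the test (adjusted p = 0.508 and 0.395). The CD1530 step from D6.75 to D7.5 lost its call when only the groups compared entered the fit (0.19, adjusted p = 0.139).

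At D8.5 Igfbp3 was at 388, 399.7 and 384 CPM in CD1530 and 241, 224 and 212 CPM in AGN, and at D10 at 707, 737 and 701 CPM against 469.8, 451 and 422 CPM. The groups did not overlap at any time from D6.75 on. The log2 fold changes were 0.60 ± 0.05, 0.87 ± 0.05, 0.79 ± 0.05 and 0.68 ± 0.05 in the order of the 4 times (adjusted p from 3.52e-11 down to 8.18e-16), and the D6.75 value was 0.55 without CD1530 replicate 1 (adjusted p = 1.68e-07). Gains from D8.5 to D10 were 0.87 ± 0.05 and 0.98 ± 0.05, and their difference did not pass the test (-0.11 ± 0.07, adjusted p = 0.265). Endothelial markers (Pecam1, Cdh5, Kdr, Tek, Tie1 and Emcn) were also higher in CD1530, 5 of 6 at D6.75 and at D7.5, when 7.94% and 15.2% of all genes were higher. Their summed level at D7.5 was 426 to 447 CPM in CD1530 and 259 to 286 CPM in AGN. By D10 it was 155 to 169.8 CPM and 143 to 153 CPM, with 3 genes higher and 2 lower (beside 46.6% of all genes called), and its part in the Igfbp3 difference was not tested.

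Igfbp4, a binding protein known mostly as an inhibitor of IGF action, differed most clearly at D6.75. It was at 135, 141 and 133 CPM in PM and at 562, 574 and 574 CPM in CD1530 and 518, 521 and 530.03 CPM in AGN at D6.25. The difference at D6.25 was small (0.12 ± 0.03, adjusted p = 0.0330), and leaving out any 1 of the 6 libraries ended the call (adjusted p from 0.0575 to 0.150). At D6.75 the levels were 733, 684 and 654 CPM in CD1530 and 538, 516 and 532 CPM in AGN. The ranges were apart, with a difference of 0.38 ± 0.03 on the log2 scale (adjusted p = 2.73e-12), or 0.34 without CD1530 replicate 1 (adjusted p = 1.60e-15). The gap closed at D7.5, where means were 483 ± 8 and 491 ± 4 CPM (SD, n = 3).

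At D8.5 Igfbp4 was called slightly lower in CD1530 (-0.09 ± 0.03, adjusted p = 0.0212), a call lost when CD1530 replicate 1 (-0.08, adjusted p = 0.0851), CD1530 replicate 3 (-0.09, adjusted p = 0.0694) or AGN replicate 2 (-0.09, adjusted p = 0.0638) was left out, and lost when library size alone was used for scaling (-0.06, adjusted p = 0.128). At D10 the conditions were at 875 ± 10 and 837 ± 20 CPM, and the difference of 0.06 ± 0.03 was not called (adjusted p = 0.105). The gain from D8.5 to D10 was larger in CD1530 by 0.16 ± 0.05 (adjusted p = 0.00891).

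Igfbp2 was the only gene of the 8 with its highest group means at D6.25. It is a binding protein of fetal and embryonic tissues, and it was already the most abundant of the 5 binding protein mRNAs per kilobase in PM. Its libraries were at 411, 423 and 396 CPM in PM, at 952, 943 and 929 CPM in CD1530 and 949.9, 949.8 and 937 CPM in AGN at D6.25. It then declined to D8.5 in AGN (537, 549.5 and 494 CPM) and to D7.5 in CD1530 (637, 628 and 591 CPM). CD1530 stood at 643, 646 and 647 CPM at D8.5, above all 3 AGN libraries, which was the only called difference of this gene in the fit over all 11 groups (0.29 ± 0.05, adjusted p = 2.40e-05). Both conditions then rose to nearly the same level at D10, 855, 877 and 866 CPM in CD1530 and 870.3, 851 and 874 CPM in AGN.

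At D10 the log2 fold change of Igfbp2 was 0.00 ± 0.05 (adjusted p = 0.985). The rise from D8.5 to D10 was smaller in CD1530 by 0.29 ± 0.07 (0.42 ± 0.05 against 0.72 ± 0.05, interaction adjusted p = 0.00286). At D6.75 its call also depended on single libraries: CD1530 replicate 1 was at 972 CPM beside 767 and 807 CPM. Without that library the difference was -0.04 (adjusted p = 0.545), and without CD1530 replicate 2 it was 0.14 (adjusted p = 0.0388), beside 0.07 with all libraries (adjusted p = 0.385).

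Igfbp7, a matrix and vessel-associated relative of the binding proteins, rose at every step in both conditions. From 12.1, 11.7 and 9.64 CPM in PM it reached 452, 495 and 486 CPM in CD1530 and 477, 474 and 471 CPM in AGN at D10. The D10 ranges overlapped (0.01 ± 0.06, adjusted p = 0.911). The conditions differed at D7.5, when CD1530 was at 157, 159 and 139.8 CPM and AGN at 106, 115 and 123 CPM. That difference was 0.41 ± 0.07 (adjusted p = 3.89e-05), and every CD1530 library lay above every AGN library. Endothelial markers were higher in CD1530 at the same time, as given with Igfbp3, and their part was not tested. At D8.5 the estimate was 0.16 ± 0.07 with an adjusted p of 0.0504, and it passed the threshold without AGN replicate 1 (0.20, adjusted p = 0.0333) or AGN replicate 2 (0.20, adjusted p = 0.0409).

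**Figure D3:**
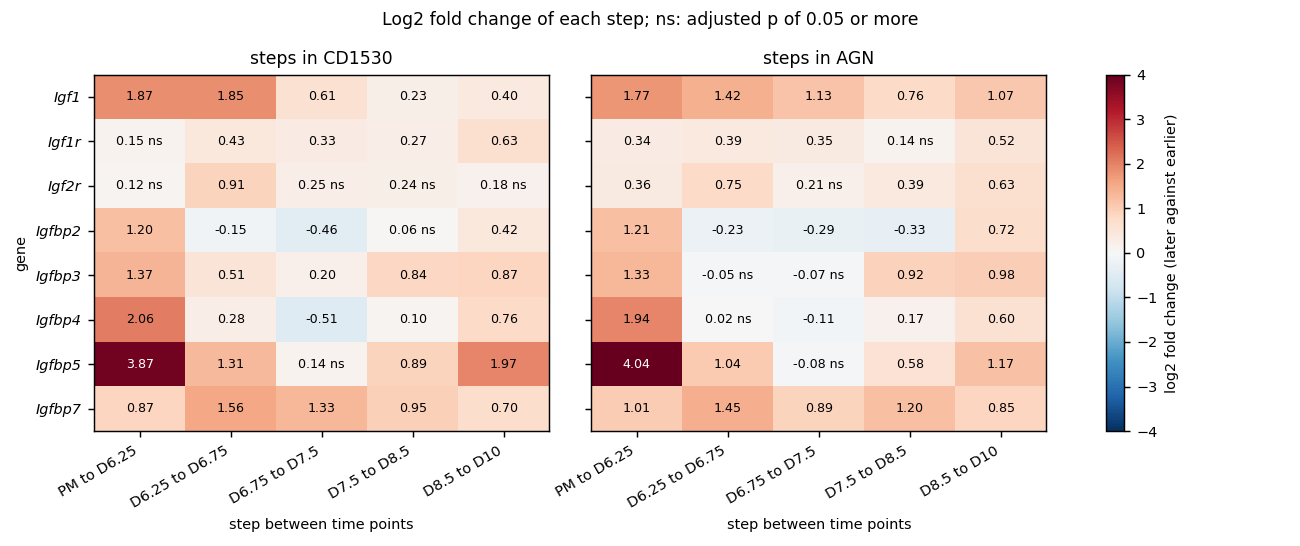
Log2 fold change of each gene (rows) over each step between successive time points (columns), in CD1530 and AGN; colour runs from -4 (blue) to 4 (red) and ns marks an adjusted p of 0.05 or more. The largest step is that of Igfbp5 from PM to D6.25, and Igfbp2 has negative values in the middle of the course in both conditions.

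The steps between time points showed when each gene moved. The step from PM to D6.25 raised 6 of 8 genes in CD1530 (67.8% of all genes changed over that step and 34.5% rose) and 8 of 8 in AGN (68.1% and 35.0%). The binding protein genes and Igf1 rose by 0.87 to 3.87 in CD1530, while Igf1r (0.15 ± 0.08, adjusted p = 0.124) and Igf2r (0.12 ± 0.10, adjusted p = 0.312) did not pass the test there. Igf1r did pass with scaling by library size alone (0.20, adjusted p = 0.0272), with only the groups compared (0.16, adjusted p = 0.0329) and without CD1530 D6.25 replicate 1 (0.22, adjusted p = 0.0216). Both receptors were called in AGN at that step, with 0.34 ± 0.08 and 0.36 ± 0.10. The direct comparison of conditions at D6.25 called neither receptor in the fit over all 11 groups, but called Igf1r with only the groups compared (-0.19, adjusted p = 0.0163). From D6.25 to D6.75, 8 of 8 changed in CD1530 (beside 45.9% of all genes) and 6 of 8 in AGN (beside 43.7%), and Igfbp2 was the only gene of the 8 that fell in either. Its fall in CD1530 (-0.15 ± 0.05, adjusted p = 0.0172) lost its call without CD1530 D6.25 replicate 1 (-0.14, adjusted p = 0.0534), CD1530 D6.75 replicate 2 (-0.08, adjusted p = 0.183) or CD1530 D6.75 replicate 3 (-0.11, adjusted p = 0.109). Igfbp4 fell from D6.75 to D7.5 in CD1530 by 0.51 ± 0.03, a step of which the AGN value was -0.11 ± 0.03, called with all libraries (adjusted p = 0.0107) but not without AGN D6.75 replicate 1 (adjusted p = 0.0583). Of the 8 genes, 6 changed in CD1530 (34.2% of all genes) and 5 in AGN (30.3%) from D6.75 to D7.5, and 6 (36.5%) and 7 (42.1%) from D7.5 to D8.5. From D8.5 to D10, 7 of 8 genes rose in CD1530 (57.3% of all genes changed) and 8 of 8 in AGN (59.4%), with Igf2r in CD1530 the gene that did not pass in edgeR, as given above with its other values.

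Over the 5 time points together, the difference between conditions changed with time for 7 of the 8 genes, all but Igf1r (4 degrees of freedom, edgeR). Adjusted p-values were 2.23e-19 for Igf1, 6.87e-11 for Igfbp3, 1.75e-10 for Igfbp4, 7.79e-10 for Igfbp5, 0.000588 for Igfbp2, 0.000866 for Igfbp7 and 0.00716 for Igf2r. Among all genes, 48.8% passed this test. Between D8.5 and D10 alone the gains differed for 5 of the 8 genes (beside 26.8% of all genes), larger in CD1530 for Igfbp4 and Igfbp5 and larger in AGN for Igf1, Igf2r and Igfbp2.

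The order of the 11 groups differed from gene to gene above PM, which was lowest for each. Igf1 was highest in AGN D10, followed by AGN D8.5, CD1530 D10 and CD1530 D8.5, each apart from the next, and its only overlapping neighbours were the conditions at D7.5 and at D6.25. Igf2r began with AGN D10, after which AGN D8.5 and CD1530 D10 overlapped. Igfbp3 and Igfbp5 shared the leading order CD1530 D10, AGN D10, CD1530 D8.5 and AGN D8.5, and for Igfbp5 the 4 groups of D6.75 and D7.5 formed an overlapping run. Igfbp4 was highest in CD1530 D10 and AGN D10, but CD1530 D6.75 and CD1530 D6.25 came next, above every group of D7.5 and D8.5. Igf1r and Igfbp7 both had the overlapping D10 groups at the top, and Igf1r also overlapped between AGN D8.5, CD1530 D8.5 and AGN D7.5. For Igfbp2 the overlapping D6.25 groups came before the D10 groups.

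The mixture of binding protein mRNAs moved from Igfbp2 to Igfbp5. Per kilobase of exon, the 5 binding protein genes summed to 285 ± 10 CPM in PM, 3111 ± 32 CPM in CD1530 D10 and 1870.1 ± 18.3 CPM in AGN D10 (SD, n = 3). Igfbp2 made up 77.5%, 78.1% and 78.2% of that sum in the PM libraries and Igfbp5 2.21 ± 0.34% (SD, n = 3). At D10 the share of Igfbp5 was 59.3%, 57.3% and 59.0% in CD1530 and 35.9%, 36.7% and 36.1% in AGN, and that of Igfbp2 was 15.0%, 15.4% and 14.9% against 25.0%, 24.6% and 25.6%. Igfbp5 was thus the most abundant of the 5 in both conditions at D10 and Igfbp2 came next, with the shares of the libraries of the 2 conditions apart for both. Igfbp7 held 12.1 to 13.2% and 20.9 to 21.1%, Igfbp4 6.4 ± 0.1% and 10.1 ± 0.1%, and Igfbp3 7.3 ± 0.3% and 7.6 ± 0.3% in CD1530 and AGN. The smaller shares of Igfbp2, Igfbp4 and Igfbp7 in CD1530 stood beside D10 levels of these genes that were not called different. A share in a sum depends on every gene of the sum.

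**Figure D4:**
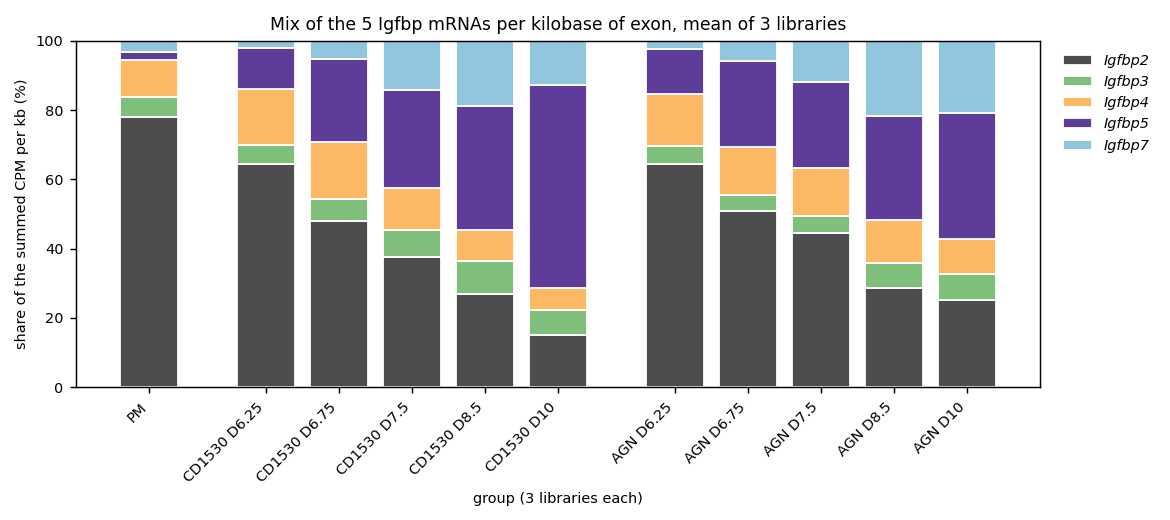
Share of each of the 5 binding protein mRNAs in their summed CPM per kilobase of exon (vertical axis, %, stacked to 100) in the 11 groups (horizontal axis), as means of 3 libraries. The Igfbp2 share shrinks from 77.9% in PM to 15.1% in CD1530 D10 and 25.0% in AGN D10, and the Igfbp5 share grows from 2.21% to 58.5% and 36.2%.

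The courses of the 8 genes over the 11 group means were close for some pairs and not for others, as Pearson r on log2(CPM + 1), a description over 11 points that share libraries and a time course. The receptors and the ligand lay near each other (Igf1 with Igf2r 0.974, Igf1r with Igf2r 0.951), and Igfbp7 lay near Igf1r (0.972), Igf2r (0.963) and Igf1 (0.961). Igfbp2 had the lowest values, with 0.0937 against Igfbp7, 0.103 against Igf2r, 0.160 against Igf1r, 0.196 against Igf1 and 0.394 against Igfbp3, but 0.516 against Igfbp5 and 0.775 against Igfbp4. Igfbp4 itself was at 0.907 with Igfbp5, 0.784 with Igfbp3 and 0.741 with Igf1. Among genes outside the 8, those closest to Igf1 were Samd14 (0.993) and Col14a1 (0.992), the latter a collagen of tendon and other dense connective tissue. Closest to Igfbp5 were Vopp1 (0.992) and Trim35 (0.991), to Igfbp7 Camk2g (0.995) and Zfp512b (0.995), and to Igf2r H6pd (0.994) and Adgrl1 (0.991). Igf1r was followed by Nedd4l (0.990) and Pigk (0.990), Igfbp3 by Mrs2 (0.988) and Ptp4a2 (0.987), Igfbp4 by Nradd (0.979) and Gstm5 (0.978), and Igfbp2 by Srek1ip1 (0.971) and Fam13a (0.961). On unlogged CPM both nearest genes were the same for Igfbp2, 1 of 2 for Igf1r and for Igf2r, and neither for the other 5.

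The remaining genes of the pathway were described from 5 lists. Of the other ligands and receptors, Igf2, Ghr, Insr and Insrr were in the table. Igf2, the fetal IGF ligand, was at 7.13, 4.77 and 6.84 CPM in PM and reached 659.6, 670.05 and 692 CPM in CD1530 and 1615, 1439 and 1469.8 CPM in AGN at D10. It was lower in CD1530 by the same order of size as Igf1 (-1.16 ± 0.13, adjusted p = 7.50e-08), and its libraries did not overlap. Ghr, the growth hormone receptor that controls Igf1 transcription in liver, was lower in CD1530 as well (103 ± 5 against 142 ± 7 CPM, -0.46 ± 0.05, adjusted p = 6.35e-10). Insr, the insulin receptor, was not called (-0.16 ± 0.09, adjusted p = 0.141), and neither was Insrr, so 2 of 4 were lower and 0 higher at D10 (beside 46.6% of all genes called). The list's median log2 fold change was -0.31, beside -0.02 over all genes. At D7.5, by contrast, 3 of the 4 were higher in CD1530 (Igf2 0.43 ± 0.14, Ghr 0.20 ± 0.06 and Insr 0.24 ± 0.09), a count that ranged from 0 to 3 when single libraries were left out: it was 0 without CD1530 D7.5 replicate 2, and 1 when replicate 1 of CD1530, or replicate 1 or 3 of AGN, was left out. Of all genes, 26.9% were called at D7.5 and 15.2% were higher.

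Of the other binding proteins and relatives, Igfbp6, Igfals and Igfbpl1 were in the table and Igfbp1 was not analysed here. Igfbp6, which prefers IGF-2, was at 26.2, 24.9 and 25.9 CPM in CD1530 and 8.13, 7.95 and 8.44 CPM in AGN at D10 (1.65 ± 0.12, adjusted p = 9.28e-15). Igfbpl1 was at 4.54 ± 0.12 and 1.42 ± 0.34 CPM (1.68 ± 0.20, adjusted p = 3.44e-09), and Igfals, the partner of IGFBP3 in blood, was not called. So 2 of 3 were higher in CD1530 (beside 46.6% of all genes called), with a list median of 1.65.

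The 6 genes for proteases that cut the binding proteins, or for their inhibitors, were mostly lower in CD1530 at D10, with 4 lower, 1 higher (46.6% of all genes were called there, 4102 lower and 3878 higher of 17120) and a list median of -0.42. The number called was 4 or 5 when single libraries were left out. Adam12, a metalloprotease that can cut IGFBP3 and IGFBP5, was at 65.5, 60.8 and 63.2 CPM in CD1530 and 123, 131 and 126 CPM in AGN (adjusted p = 7.02e-11). Htra1, a serine protease that can cut IGFBP5, was at 161 ± 8 and 221 ± 10 CPM (-0.45 ± 0.07, adjusted p = 5.15e-07), whereas at D8.5 it had been higher in CD1530 by 1.24 ± 0.07. Pappa, which cuts IGFBP4, was slightly higher in CD1530 (16.5 to 17.8 against 10.4 to 13.7 CPM, 0.49 ± 0.18, adjusted p = 0.0261). Pappa2, which cuts IGFBP3 and IGFBP5, fell outside the rule for named genes, with a mean of 46.8 counts, and was singled out after its values were seen. It was at 1.52, 0.715 and 1.35 CPM in CD1530 and 14.6, 17.3 and 15.7 CPM in AGN (-3.72 ± 0.19, adjusted p = 9.18e-20). Stc1 was lower too, and Stc2 was not called.

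Of 23 genes of the intracellular relay, 22 were in the table, and at D10 8 were higher and 5 lower in CD1530, with a median of 0.03. These 13 of 22 stand beside the 46.6% of all genes called. The 3 largest changes among them were in Pik3r1, a regulatory subunit of PI3 kinase (98.5 ± 2.4 against 49.2 ± 1.3 CPM, 1.00 ± 0.07, adjusted p = 1.21e-14), in Foxo1, a transcription factor that AKT holds out of the nucleus (48.5 ± 2.2 against 75.1 ± 2.3 CPM, -0.63 ± 0.05, adjusted p = 4.17e-13), and in Irs1, an adaptor of the receptor (88.2 ± 5.6 against 125 ± 7 CPM, -0.51 ± 0.13, adjusted p = 0.00186). The relay genes were thus split in direction. At D6.75 the split was more uneven, with 1 higher and 8 lower, a count of 9 that was 3 when only the groups compared entered the fit. Of all genes, 18.0% were called at D6.75, 1359 higher and 1717 lower of 17120. Among the 3 mRNA-binding proteins named for Igf2 mRNA, 1 was higher at D10 (beside 46.6% of all genes called), Igf2bp1 (224 ± 2 against 186 ± 6 CPM, 0.27 ± 0.04, adjusted p = 2.16e-06).

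**Figure D5:**
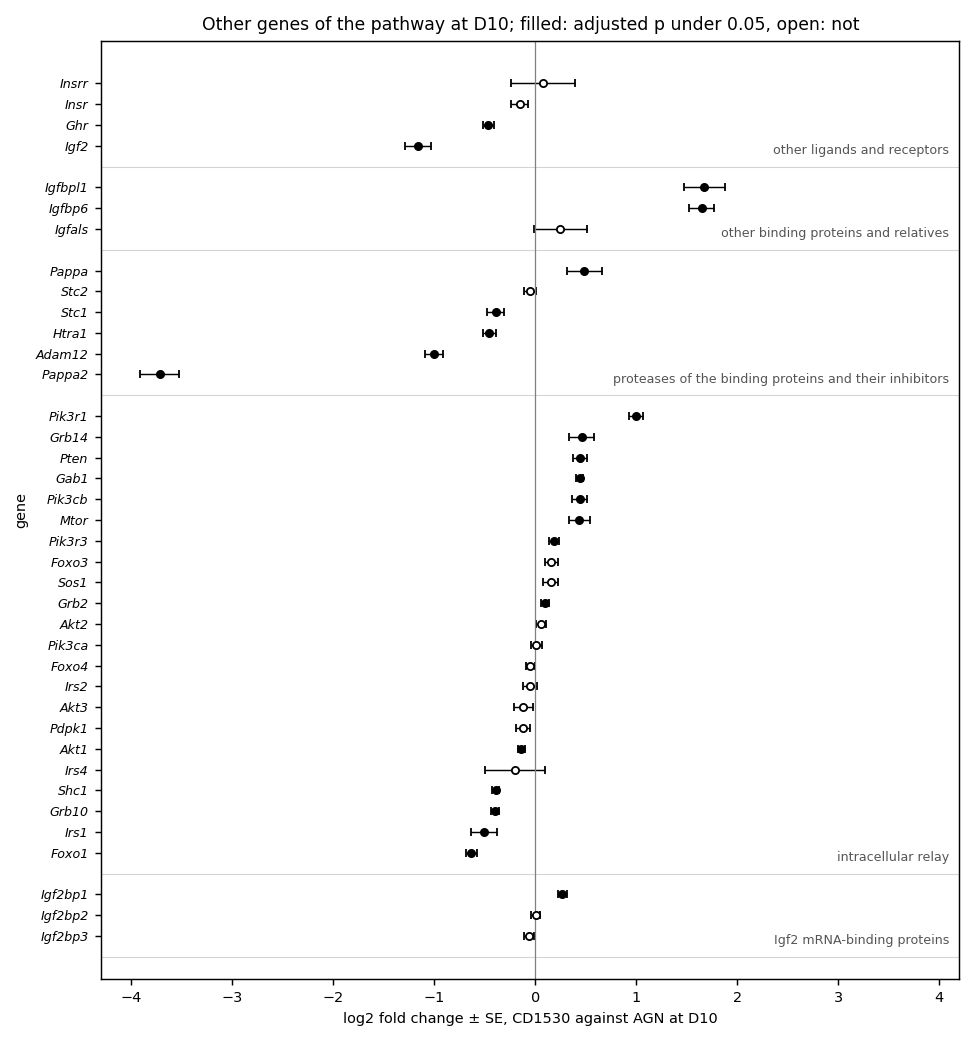
Log2 fold change of CD1530 against AGN at D10 (horizontal axis) with standard error for the other genes of the pathway (vertical axis, grouped by list); filled points have an adjusted p under 0.05. Igf2 and 4 of 6 protease and inhibitor genes are filled points below 0, Igfbp6 and Igfbpl1 are filled points above it, and the relay genes lie on both sides.

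From PM to D10 the lists moved less uniformly than the 8 genes. The 4 other ligand and receptor genes rose in both conditions, Igf2 by 6.76 ± 0.20 in CD1530 and 7.92 ± 0.20 in AGN. Of the protease and inhibitor genes 5 rose in CD1530 and 6 in AGN, the difference being Pappa2 (-0.15 ± 0.27 in CD1530, adjusted p = 0.610). Of the 22 relay genes, 15 rose and 4 fell in CD1530 and 15 rose and 5 fell in AGN, where 83.2% and 82.0% of all genes changed and 43.3% and 41.6% rose. Among the other binding proteins, Igfbp6 rose (3.77 ± 0.15 and 2.12 ± 0.18) while Igfals and Igfbpl1 fell in both conditions. Igf2bp1 fell, by 1.02 ± 0.04 in CD1530 and 1.29 ± 0.04 in AGN on the log2 scale.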

How the data were processed

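RNA libraries of 33 cultures (11 groups of 3) were sequenced (17116084 to 38120841 counts each), aligned to GRCm38 with STAR and counted per gene with featureCounts, per the study's methods. The authors deposited raw counts per gene for 17120 genes, with no normalisation. Annotation release and multi-mapping rules were not given in the sources used here.

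The analysis ran in edgeR 4.0.16 (R 4.3.3): TMM scaling, filterByExpr, robust quasi-likelihood fits over all 11 groups (biological coefficient of variation 4.68%) and 19 contrasts with Benjamini-Hochberg adjustment over all genes; an adjusted p under 0.05 made a call. Alternatives used DESeq2 1.42.0. The edgeR fit was tested on simulated counts with known changes between CD1530 and AGN at D10. It recovered 26 of 50 genes changed 1.25-fold, 35 of 50 changed 1.5-fold, 46 of 50 changed 2-fold and 50 of 50 changed 4-fold. Of its 167 calls, 10 were false. Small changes were thus often missed. No 2 replicates agreed within sampling noise (chi-square per gene at least 1.58). In 0 of 15 same-numbered pairs did deviations correlate over 0.1. No pairing by number was thus detected, which does not exclude shared cultures behind a number. IDs matched GENCODE M21 in 17117 cases. Named genes were the 8 genes, Igf2, Insr, up to 3 called genes per list with the largest D10 change and a mean of at least 50 counts, and the 2 genes closest to each of the 8. The 8 genes and all lists were chosen with earlier results of these data known.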

Additional observations from a re-analysis of the deposited data

Results flagged for a closer look

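The difference between CD1530 and AGN changed over time for 7 of the 8 genes in a test over the 5 time points, which 48.8% of all genes passed. Each of the 7 is given here as an effect of the condition that was not the same at all times. The adjusted p-values (edgeR, 4 degrees of freedom) were 2.23e-19 for Igf1, 6.87e-11 for Igfbp3, 1.75e-10 for Igfbp4, 7.79e-10 for Igfbp5, 0.000588 for Igfbp2, 0.000866 for Igfbp7 and 0.00716 for Igf2r.

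For 5 of the 8 genes the change from D8.5 to D10 itself differed between the conditions (beside 26.8% of all genes). On the log2 scale the gain in CD1530 minus the gain in AGN was -0.67 for Igf1, -0.44 for Igf2r, -0.29 for Igfbp2, 0.16 for Igfbp4 and 0.79 for Igfbp5.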

How the results depend on the processing

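Under other settings of the whole fit, 1013 values of single genes kept their direction and their side of the threshold, 9 changed sign, 21 gained a call and 5 lost one. With 1 library left out the numbers were 1107, 16, 12 and 17. Scaling by library size alone moved the middle of all genes' changes from PM to D10 in AGN to -0.15 (-0.0025 in the report) and in CD1530 to -0.07 (0.04), and from D8.5 to D10 in AGN to -0.11 (-0.01). Under that scaling the highest group levels in CPM were 260.6 for Igf1, 169 for Igf1r, 1124 for Igf2r, 984 for Igfbp2, 665 for Igfbp3, 813 for Igfbp4, 10169 for Igfbp5 and 444 for Igfbp7, each given for the group that was highest in the report. The numbers of all genes rising against falling also moved: from D7.5 to D8.5 from 3227 against 3026 to 2566 against 3766 in CD1530 and from 3668 against 3535 to 2461 against 5176 in AGN, and from D8.5 to D10 from 4686 against 5120 to 3610 against 6520 in CD1530 and from 5125 against 5043 to 4041 against 6406 in AGN.

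Library size alone also gave 0.0010 for Igfbp2 at D6.25, -0.0015 for Igf1 at D7.5 and -0.0024 for Igfbp4 from D6.25 to D6.75 in AGN, signs opposite to the report for differences not called in either. It ended the D8.5 call of Igfbp4 (-0.063) and called Igfbp7 at D8.5 (0.19) and Igfbp4 at D10 (0.10). DESeq2 size factors gave -0.0018 for Igf1 at D7.5, -0.017 for Igfbp2 at D10 and -0.0080 for Igfbp7 at D10, and DESeq2 itself -0.0019, -0.017 and -0.0079, none of them called; with its size factors the D8.5 counts were 1 for other ligands and receptors and 0 for other binding proteins. A filter at 1 CPM in 3 libraries called Igfbp7 at D8.5 (0.16, adjusted p = 0.0486).

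Fitting only the groups compared called Igf1r at D6.25 (-0.19), D7.5 (-0.19) and D10 (0.088), Igfbp5 at D6.25 (-0.16), Igfbp2 at D7.5 (-0.11), Igf2r at D8.5 (-0.20), Igfbp7 at D8.5 (0.16) and Igfbp4 at D10 (0.081). It gave 3 of the 8 genes called at D6.25 and 5 at D7.5, 3 protease genes at D6.25, 4 relay genes at D6.25 and 3 at D6.75, 0 Igf2 mRNA-binding proteins at D6.75 and 1 other binding protein at D7.5. The share of all genes called in that fit was not worked out, so these counts have no background beside them. Among the steps, that fit ended the CD1530 calls of Igfbp3 (0.19) and Igf1r (0.32) from D6.75 to D7.5 and of Igfbp2 from D6.25 to D6.75 (-0.17), and called Igf2r from D7.5 to D8.5 in CD1530 (0.24) and from D6.75 to D7.5 in AGN (0.22), and Igf1r from D7.5 to D8.5 in AGN (0.14). DESeq2 called Igf2r from D6.75 to D7.5 (0.24) and from D7.5 to D8.5 (0.24) in CD1530. The causes were not tested. Asking for a log2 fold change of at least 1 left 0 of the 8 genes called between conditions at D6.25, D6.75, D7.5 and D8.5 and 2 at D10 (beside 10.8% of all genes at D10). For the 4 steps after D6.25 it left 3, 1, 0 and 1 in CD1530 and 3, 1, 1 and 2 in AGN, and 0 for the D8.5 to D10 interaction. The shares of all genes for these steps are not given. On unlogged CPM, 0 of the 2 genes closest to Igf1, Igfbp3, Igfbp4, Igfbp5 and Igfbp7 were the same, and 1 for Igf1r and Igf2r.

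Replicate numbers are shared between groups in the labels, but the libraries that share a number did not deviate together (correlations from -0.11 to 0.044), and 11 of 33 libraries correlated best with their own number. With the replicate block, Igfbp7 at D8.5 was called (0.17, adjusted p = 0.0362) and the D8.5 count of other ligands and receptors was 1.

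With single libraries left out, the number of the 8 genes called at D6.25 was 0 in each case. The differences between CD1530 and AGN then ranged at D6.25 from 0.12 to 0.13 for Igfbp4, from -0.014 to 0.0030 for Igfbp2 and from -0.0014 to 0.074 for Igfbp3. At D6.75 the ranges were -0.18 to 0.071 for Igf2r, -0.037 to 0.14 for Igfbp2, 0.020 to 0.25 for Igfbp5, -0.26 to -0.043 for Igf1r and -0.11 to 0.046 for Igfbp7, with 0 to 2 other ligands and receptors and 1 to 2 Igf2 mRNA-binding proteins called. At D7.5 they were -0.10 to 0.017 for Igf2r and -0.051 to 0.080 for Igf1, with 0 to 3 other ligands and receptors and 0 to 1 other binding proteins. At D8.5 they were -0.11 to -0.082 for Igfbp4, -0.092 to 0.0075 for Igf1r and 0.10 to 0.20 for Igfbp7, with 1 to 2 other ligands and receptors and 0 to 2 other binding proteins. At D10 they were -0.010 to 0.011 for Igfbp2 and -0.016 to 0.049 for Igfbp7. The step of Igfbp5 from D6.75 to D7.5 in CD1530 ranged from -0.0039 to 0.23. The interaction from D8.5 to D10 ranged from -0.48 to -0.40 for Igf2r, and the adjusted p of the test over 5 time points for Igf1r from 0.0349 to 0.302.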
